A study of Homo sapiens with 16 samples.

Results

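The 88 genes described here were lower after 3 h of all-trans retinoic acid (ATRA) than with vehicle in ME180 cells, a human cell line from an epidermoid (squamous) carcinoma of the cervix, taken from a metastasis in the omentum. They were chosen from the values themselves, in the arrays of replicates 2 to 4. A gene entered when its mean log2 intensity at 3 h lay at least 0.9 below that of the vehicle, all its 3 h arrays lay below all its vehicle arrays, and its vehicle mean was at least 7. Of 20046 gene symbols on the array, 7336 had such a vehicle mean and 107 met every threshold. The rule set 19 of these aside by name, which left 88. It left out every symbol starting ZNF, ZSCAN, SLC, DLX, SOX, KLF or KRT, and ID1, ID2, ID3 and ID4. Also left out were SMAD6, OVOL2, VAV3, INKA1, PPFIBP2, PKIA, ISL1, DBP and HES1. Each symbol was read through the probe with the highest mean.

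The series holds 16 arrays in 4 groups of 4. The vehicle group received dimethyl sulfoxide (DMSO) and carries no treatment time in the labels, so it is a single reference for all times. The other groups received 10 µM ATRA for 1 h, 3 h or 6 h. All 16 arrays share the line and the medium with 10% fetal bovine serum. The labels do not state whether the 4 replicates came from separate cultures, so the p-values below measure the spread between arrays, which may be technical. The line itself is a single carcinoma line and not normal cervical epithelium.

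ATRA is the ligand of the retinoic acid receptors, nuclear receptors that sit on DNA together with retinoid X receptors and exchange corepressors for coactivators when the ligand binds. The best known responses are inductions, such as that of CYP26A1, the cytochrome P450 that clears retinoic acid. In squamous epithelia retinoids are known for holding back keratinization. An array reads the amount of an mRNA, which reflects both its synthesis and its decay.

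Sequences of HES5 and of the microRNA miR-205 are shown first, because these genes lay below DMSO at 1 h as well as at 3 h. HES5 encodes a basic helix-loop-helix repressor known as a target of Notch signaling, in which the DNA-binding protein RBPJ recruits the Notch intracellular domain. The HES5 promoter window lies at chr1:2530214-2530513 on the minus strand of GRCh38.p14 in the RefSeq table, spans the annotated start site and is mostly upstream of it. Capitals mark the 6-letter RBPJ core TGGGAA, searched on both strands, which began at window positions 27 (reverse strand, read as TTCCCA) and 171, counted from 1 at the 5′ end.
HES5 promoter: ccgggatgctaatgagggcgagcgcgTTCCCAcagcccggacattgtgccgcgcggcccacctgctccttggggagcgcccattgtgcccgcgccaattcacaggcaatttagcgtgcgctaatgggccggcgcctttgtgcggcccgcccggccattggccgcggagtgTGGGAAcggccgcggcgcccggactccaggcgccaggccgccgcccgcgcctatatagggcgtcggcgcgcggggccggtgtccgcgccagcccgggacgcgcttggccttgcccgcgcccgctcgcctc
The MIR205 gene lies on the plus strand of the same chromosome, with its mature strands annotated at chr1:209432166-209432187 and chr1:209432203-209432223. Capitals mark the seed, bases 2 to 8, which pairs with target mRNAs. The 2 strands have different seeds.
hsa-miR-205-5p: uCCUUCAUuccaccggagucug
hsa-miR-205-3p: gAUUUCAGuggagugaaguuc
The miR-205-5p strand is known from squamous and basal epithelia and from its repression of ZEB1 and ZEB2. The array probe named MIR205 reads labelled RNA of that gene and is no measure of either mature strand.

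Some arrays stood apart, and the results that rest on them are given with and without them. The arrays numbered replicate 1 carried their values 1 row too low from row 10569 of 47230 on. Moving the values up raised the correlation across probes with the other arrays from 0.325 to 0.979, the value before the break, and the moved values are used throughout. After this the replicate 1 arrays still differed in level from the rest for 6600 of 12467 genes and probes (52.9%), and 79 of the 88 genes were lower in them. The share of all 7336 genes lower in them was not counted. The median of the 88 genes in these arrays lay -0.90 from the other arrays, against -0.14 over the 7336 genes. The quartiles were -1.37 and -0.44 for the 88 genes, against -0.57 and 0.21. The rule read its vehicle minimum in replicates 2 to 4 only. CYP26A1, as a check of the labels, read 7.26 to 8.83 with DMSO and 12.18 to 14.02 at 3 h. The arrays labelled 6 h replicates 2 and 4 gave 4.53 and 5.45, below every DMSO array, whereas 6 h replicates 1 and 3 gave 12.95 and 13.13. In the array labelled 1 h replicate 2 it read 7.51, inside the DMSO range, against 10.77 to 12.14 in the other 1 h arrays. CYP26B1, of the same family, read 9.07 in that array, above its 6.22 to 7.80 with DMSO. In 6 h replicates 2 and 4 CYP26B1 read 6.70 and 7.12, inside its DMSO range. The squamous markers KRT5, KRT14, CDH1, DSP and PERP reached 6 in all 16 arrays, and KRT5 read 13.44 to 14.13. TP63, KRT6A and KRT17 were not analysed here. Of the markers of other cell types, COL1A2, COL3A1, PDGFRB, PTPRC, CD3E and PECAM1 reached 6 in 0 arrays, COL1A1 and VWF in 13 each, CDH5 in 6, DCN in 4 and CD14 in 2.

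In replicates 2 to 4, which chose the genes, the 3 h means differed from the DMSO means by -3.22 to -0.91, with a median of -1.11 on the log2 scale against -0.07 over the 7336 genes. These values are given as a description only, as are the 88 of 88 genes whose groups did not overlap there, a condition met by 13.4% of the 7336 genes. The genes nearest the threshold were PIK3C2B at -0.911 and CEBPA and IGSF9 at -0.909 on the inside. Outside it lay ERF at -0.899, FAM20C at -0.898 and RXRA, which encodes retinoid X receptor alpha, at -0.894. In RNA of a whole culture, fewer cells of a type and less RNA per cell cannot be told apart.

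**Figure D1:**
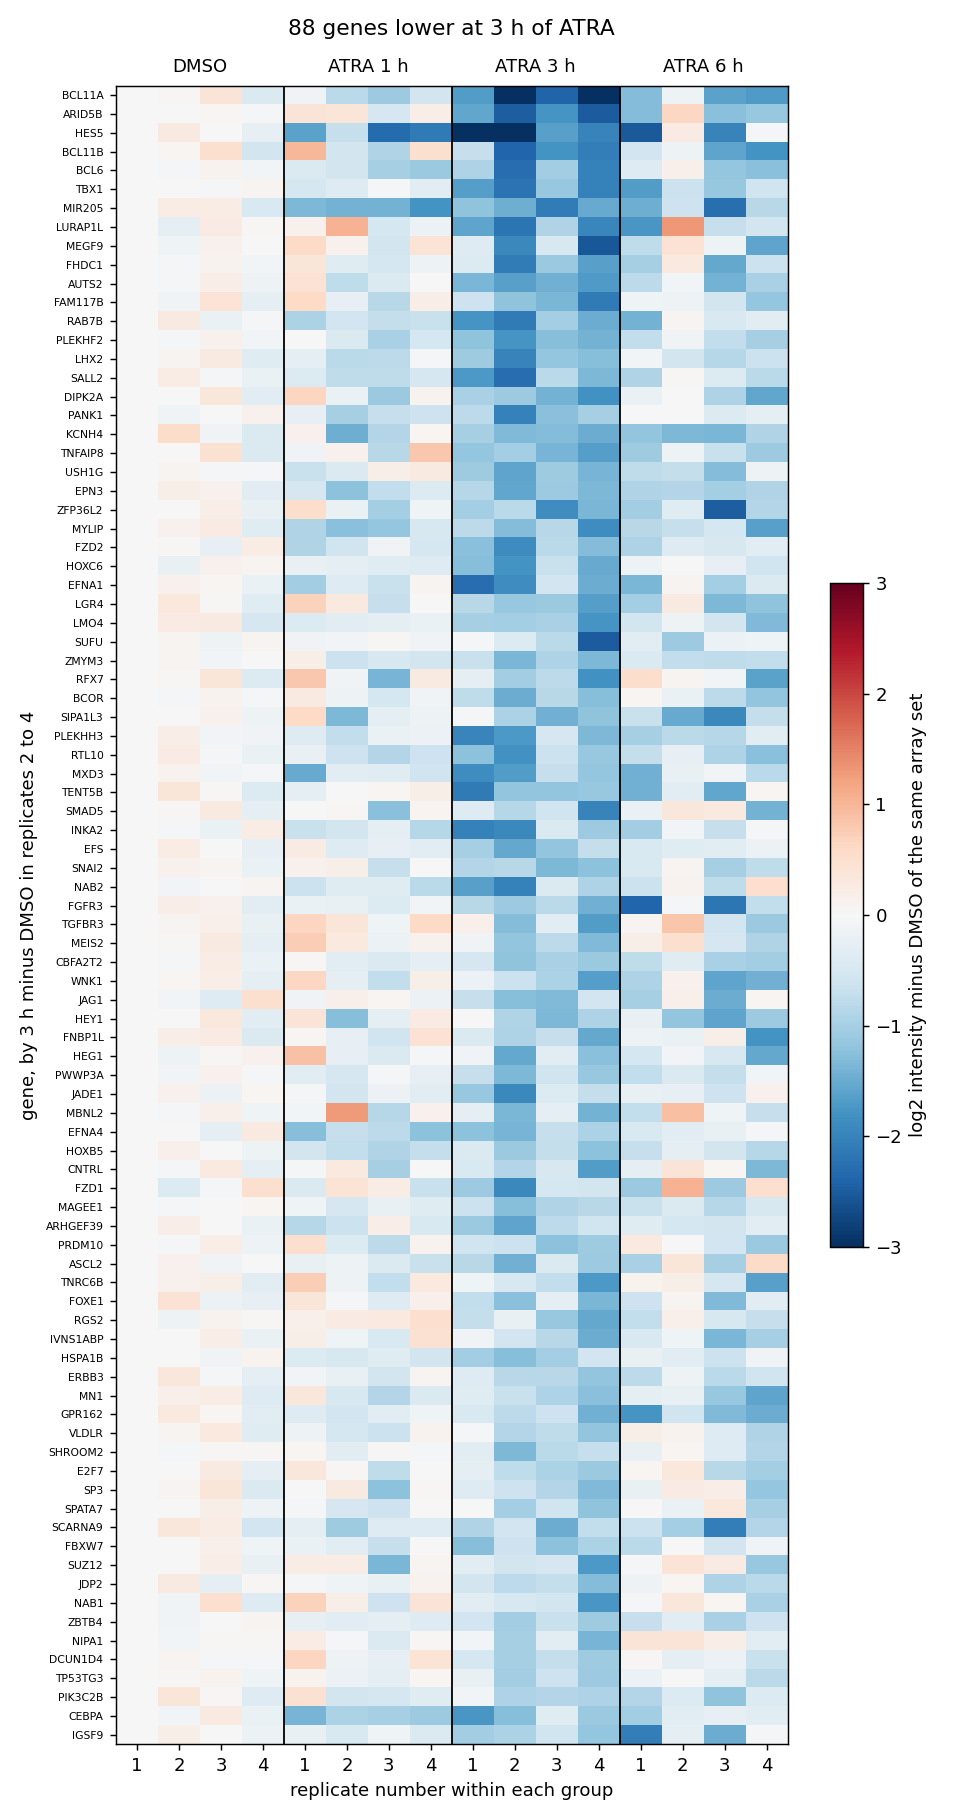
Log2 intensity of each of the 88 genes (rows, ordered by the 3 h difference in replicates 2 to 4) in each of the 16 arrays (columns), minus the DMSO value of the same array set, which is the DMSO array for replicate 1 and the mean of the 3 DMSO arrays for replicates 2 to 4. Colours end at -3 and 3, and lower values are drawn at the limit. Blue, for lower values, marks most cells of the 3 h columns, is uneven at 6 h, and marks HES5, MIR205 and CEBPA already at 1 h.

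The replicate 1 arrays, which the rule did not use, gave the same contrast a second time with 1 array per group and so without a test. There 87 of the 88 genes (98.9%) were lower at 3 h than with DMSO, against 55.6% of all 7336 genes. At least 0.9 below DMSO lay 36 genes (40.9%), against 1.58%. The median was -0.76, against -0.04 over all 7336 genes. TGFBR3 alone was not lower, at 0.15. The median was nearer to 0 than the -1.11 of the arrays that chose the genes. Over all 4 replicates together, 32 of the 88 genes had every 3 h array below every DMSO array, against 2.73% of all genes. Within replicates 2 to 4 the rule fixed this order for every gene. Such counts and statements, here and for single genes below, are therefore descriptions to which only replicate 1 adds. The rule applied to all 4 replicates gave 25 genes, 23 of them among the 88.

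**Figure D2:**
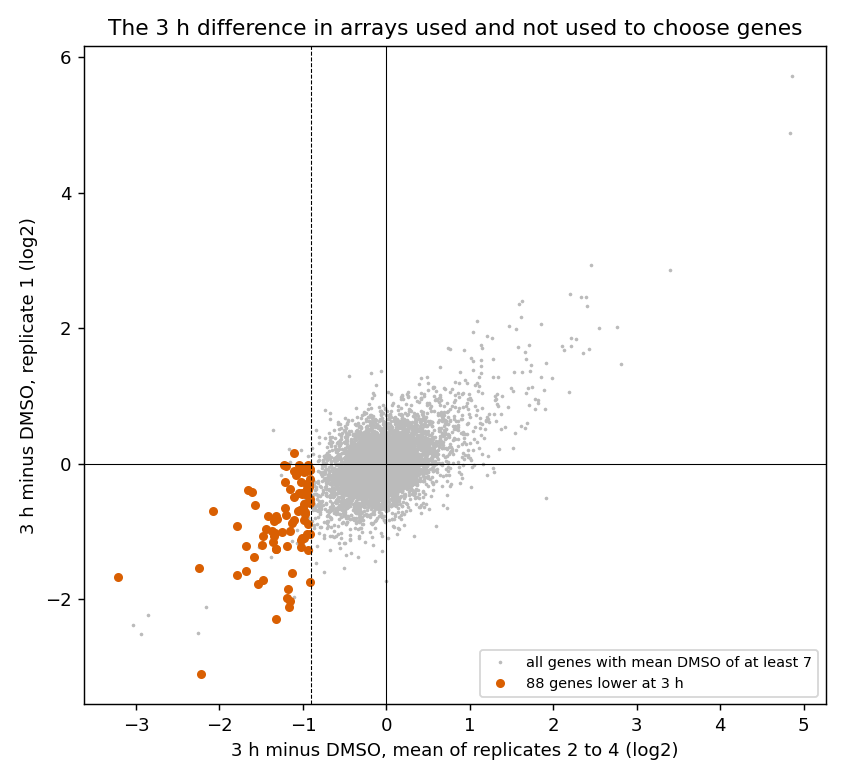
The 3 h minus DMSO difference in replicate 1 (vertical axis, log2) against its mean in replicates 2 to 4 (horizontal axis, log2) for the 7336 genes with a DMSO mean of at least 7 (grey) and the 88 genes (orange), with the rule's threshold dashed. Of the orange points 87 lie below 0 on the vertical axis, and grey points left of the dashed line are genes that overlapped between groups or were left out by name.

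DNA-binding transcription factors made up 24 of the 88 genes (27.3%), by a grouping made by hand after the genes were known. Their share over all 7336 genes was not counted, and the rule left out several families of such factors by name. In replicate 1, 24 of 24 were lower at 3 h, beside 87 of all 88 genes. Their median there was -0.79, beside -0.76. The lowest of all 88 in replicates 2 to 4 was BCL11A, a zinc finger repressor known for silencing fetal globin. In log2 intensity, in the order of replicates 1 to 4, BCL11A read 7.52, 9.61, 9.95 and 9.14 with DMSO, 7.43, 8.76, 8.47 and 9.02 at 1 h, 5.86, 6.14, 7.18 and 5.74 at 3 h, and 6.22, 9.41, 7.97 and 7.86 at 6 h. Every 3 h array lay below every other array of its own number, and the DMSO and 3 h groups did not overlap. The mean went from 9.06 ± 1.07 (SD, n = 4) to 6.23 ± 0.66, and in replicates 2 to 4 it was 9.3-fold lower. A second BCL11A probe gave -3.13 in replicates 2 to 4. BCL11B, its paralog, known from T cell and skin development, read 5.79, 8.61, 9.03 and 8.0 with DMSO, 6.79, 8.0, 7.63 and 9.03 at 1 h, 5.10, 6.16, 6.75 and 6.47 at 3 h, and 5.21, 8.40, 6.97 and 6.76 at 6 h. In replicates 2 to 4 it was 4.24-fold lower at 3 h. In replicate 1 its DMSO array, at 5.79, already lay below the 3 h arrays of replicates 2 to 4, and the 3 h difference was -0.69.

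ARID5B, an ARID-domain DNA-binding protein known to work with the histone demethylase PHF2, read 9.64, 10.74, 10.81 and 10.73 with DMSO, 10.04, 11.12, 10.27 and 10.97 at 1 h, 8.10, 8.29, 9.0 and 8.25 at 3 h, and 8.34, 11.37, 9.51 and 9.62 at 6 h. The 4 arrays at 3 h, from 8.10 to 9.0, lay below all 4 DMSO arrays, while the 1 h mean of 10.60 ± 0.53 lay beside the DMSO mean of 10.48 ± 0.56. At 6 h the array labelled replicate 2 was the highest of all 16. BCL6, the POZ zinc finger repressor of germinal center B cells, read 7.46, 9.55, 9.70 and 9.50 with DMSO, 7.04, 9.02, 8.59 and 8.47 at 1 h, 6.55, 7.30, 8.53 and 7.56 at 3 h, and 7.08, 9.74, 8.41 and 8.32 at 6 h. Its replicate 1 DMSO array stood well below the other 3, so the groups overlapped over 4 replicates. In replicate 1 the 3 h difference was -0.92. TBX1, a T-box factor of pharyngeal development, read 7.10, 8.11, 8.06 and 8.21 with DMSO, 6.57, 7.74, 8.06 and 7.81 at 1 h, 5.45, 5.91, 6.99 and 6.11 at 3 h, and 5.43, 7.48, 6.99 and 7.52 at 6 h. All 4 of its 3 h arrays lay below all 4 DMSO arrays, and the 1 h arrays overlapped with DMSO.

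**Figure D3:**
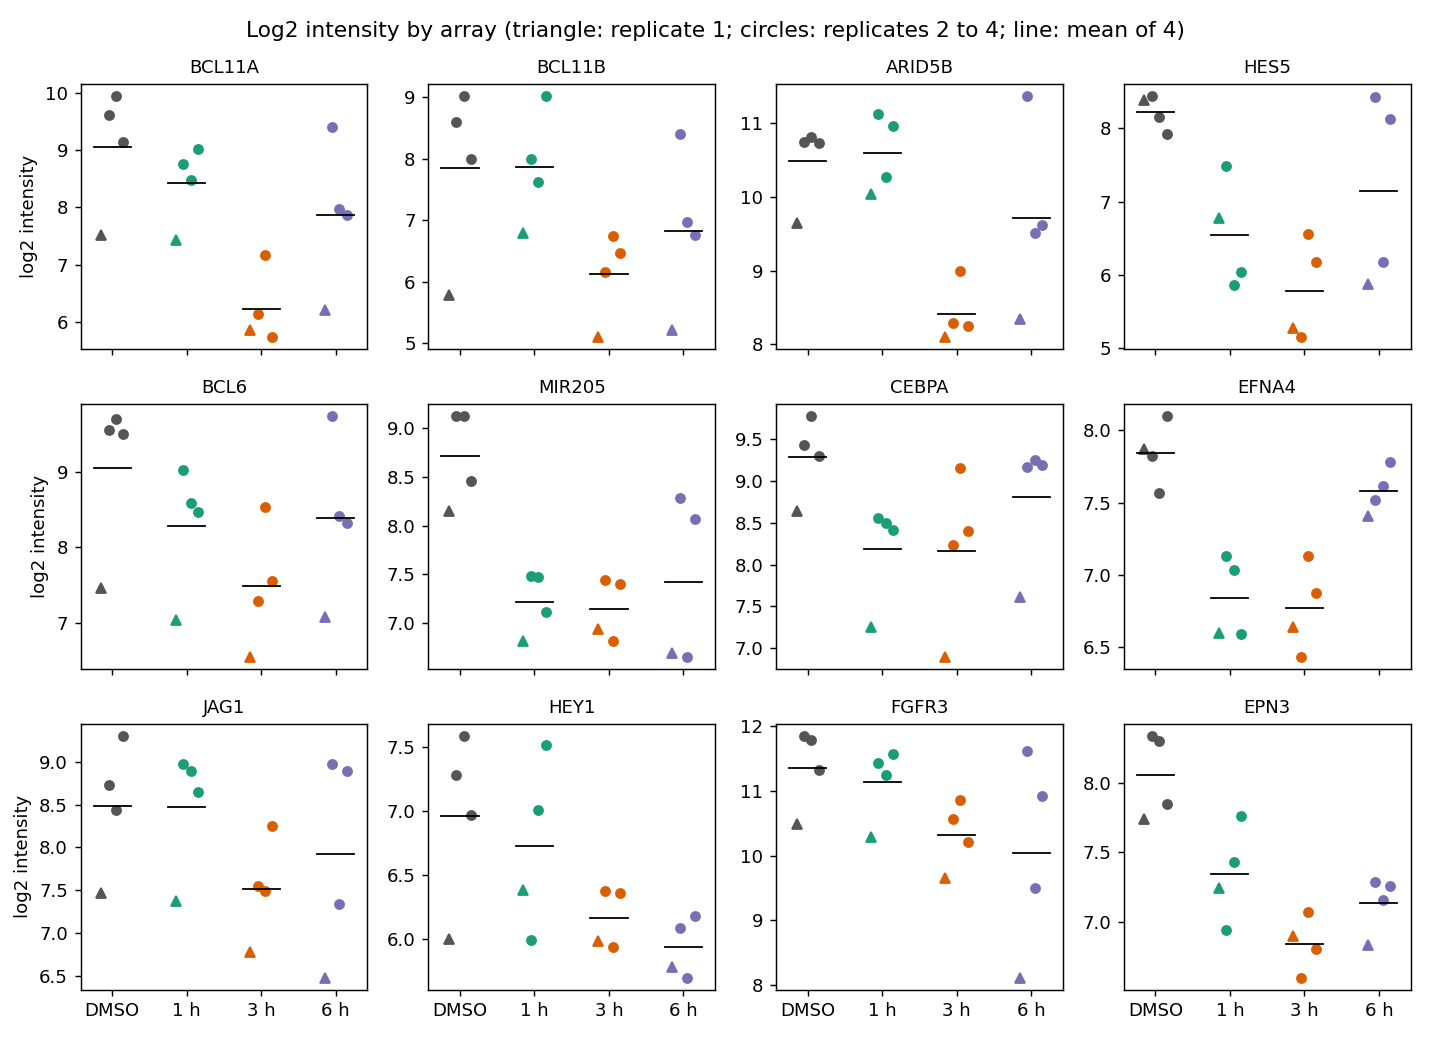
Log2 intensity of 12 of the genes in every array by group, on axes scaled to each gene, with triangles for replicate 1, circles for replicates 2 to 4 and a line at the mean of 4. The 3 h mean is the lowest for BCL11A and ARID5B, HES5, MIR205 and EFNA4 are low already at 1 h, and HEY1 is lowest at 6 h.

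The homeodomain factors were LHX2, HOXC6, HOXB5 and the HOX cofactor MEIS2. LHX2, a LIM homeodomain factor known from hair follicle stem cells, read 7.55, 9.52, 9.72 and 9.09 with DMSO, 7.28, 8.63, 8.66 and 9.38 at 1 h, 6.48, 7.45, 8.28 and 8.18 at 3 h, and 7.47, 8.89, 8.59 and 8.81 at 6 h. Its 3 h mean of 7.60 ± 0.83 lay below the DMSO mean of 8.97 ± 0.98, and the groups overlapped because the replicate 1 DMSO array was low. In replicate 1 the 3 h difference was -1.27 for HOXC6 and -0.44 for HOXB5, but -0.11 for MEIS2. SNAI2, a zinc finger repressor of the E-cadherin gene, read 8.73, 10.08, 10.04 and 9.75 with DMSO, 8.87, 10.15, 9.27 and 9.97 at 1 h, 7.85, 9.13, 8.60 and 8.74 at 3 h, and 8.27, 10.04, 8.96 and 9.19 at 6 h. The 3 h difference was -0.88 in replicate 1, and the groups overlapped through that replicate. A second SNAI2 probe gave -1.06 in replicates 2 to 4.

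CEBPA, a leucine zipper factor of differentiating epithelia and myeloid cells, read 8.64, 9.43, 9.78 and 9.30 with DMSO, 7.25, 8.55, 8.50 and 8.42 at 1 h, 6.89, 8.24, 9.15 and 8.40 at 3 h, and 7.61, 9.17, 9.26 and 9.19 at 6 h. The 4 arrays at 1 h, from 7.25 to 8.55, lay below all 4 DMSO arrays. At 3 h the replicate 3 array, at 9.15, overlapped with DMSO. MXD3, a MAX partner that opposes MYC, read 8.52, 8.63, 8.44 and 8.48 with DMSO, 7.0, 8.21, 8.15 and 7.93 at 1 h, 6.66, 6.85, 7.82 and 7.36 at 3 h, and 7.09, 8.28, 8.44 and 7.71 at 6 h. Its DMSO arrays were tight, from 8.44 to 8.63, and all 1 h and all 3 h arrays lay below them, whereas the 6 h replicate 3 array returned to the lower edge of the DMSO range. The other factors in this group, by their replicate 1 difference at 3 h, ranged from -1.72 for SALL2 to -0.27 for RFX7. They were the helix-loop-helix factor ASCL2 (-0.83), the forkhead factor FOXE1 (-0.75), PRDM10 (-0.60), the methyl-CpG binding ZBTB4 (-0.58), the leucine zipper repressor JDP2 (-0.56), the GC-box factor SP3 (-0.39), the BMP effector SMAD5 (-0.38) and the atypical E2F repressor E2F7 (-0.29).

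Genes of Notch signaling among the 88 were the ligand JAG1 and the target repressors HES5 and HEY1. The rule left out HES1 by name, so it could not be among them. HES5 read 8.38, 8.45, 8.16 and 7.92 with DMSO, 6.78, 7.49, 5.86 and 6.04 at 1 h, 5.27, 5.15, 6.55 and 6.17 at 3 h, and 5.87, 8.43, 6.17 and 8.13 at 6 h. All 4 arrays at 1 h and all 4 at 3 h lay below all 4 DMSO arrays, and its replicate 1 difference of -3.11 at 3 h was the lowest of the 88. At 6 h its arrays split, since replicates 1 and 3 stayed near the 3 h level (5.87, 6.17) whereas the arrays labelled 2 and 4 lay in the DMSO range (8.43, 8.13). JAG1 read 7.47, 8.73, 8.44 and 9.30 with DMSO, 7.37, 8.97, 8.89 and 8.65 at 1 h, 6.77, 7.54, 7.49 and 8.25 at 3 h, and 6.48, 8.98, 7.34 and 8.89 at 6 h. Its 3 h difference was -0.70 in replicate 1. The mean went from 8.49 ± 0.77 to 7.52 ± 0.60 (SD, n = 4), and the groups overlapped. HEY1 read 6.00, 7.28, 7.58 and 6.97 with DMSO, 6.38, 5.99, 7.01 and 7.51 at 1 h, 5.98, 6.38, 5.94 and 6.36 at 3 h, and 5.78, 6.08, 5.70 and 6.18 at 6 h. Its replicate 1 arrays differed by -0.02 between 3 h and DMSO, so the low 3 h level rested on replicates 2 to 4, and each of its 4 arrays at 6 h lay below the 3 h array of the same number. Of 26 listed Notch pathway genes, which do not include HES5, 12 had a DMSO mean of at least 7, and 9 of these were lower at 3 h in replicate 1 with a median of -0.11, beside 55.6% and -0.04 over all 7336 genes.

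Coregulators and chromatin proteins numbered 11, and 11 of 11 were lower at 3 h in replicate 1, with a median of -0.68. All 88 genes together had 87 lower and a median of -0.76 there. NAB2, a corepressor of the EGR factors, read 7.70, 7.83, 7.88 and 7.99 with DMSO, 7.06, 7.53, 7.53 and 7.09 at 1 h, 6.08, 5.87, 7.46 and 6.98 at 3 h, and 7.05, 8.01, 7.14 and 8.40 at 6 h. All arrays at 1 h and at 3 h lay below all DMSO arrays, while 2 of the 4 arrays at 6 h lay above them. Its paralog NAB1 gave -0.34 in replicate 1 at 3 h. BCOR, the corepressor that BCL6 recruits, gave -0.75 in replicate 1 and -1.2 in replicates 2 to 4. LMO4, a LIM-only adaptor, gave -1.0 and -1.25, and its second probe -1.30 in replicates 2 to 4. AUTS2, a Polycomb partner, gave -1.38 and -1.59. The Polycomb subunit SUZ12 gave -0.31 and -0.93. The other 5 were CBFA2T2, JADE1, MN1, PWWP3A and ZMYM3, from -1.13 (JADE1) to -0.37 (MN1) in replicate 1. A second JADE1 probe, with a DMSO mean of 7.67, gave only -0.15 against -1.03 for the first in replicates 2 to 4.

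Among 6 regulators at the RNA level, MIR205 was the lowest in replicates 2 to 4. The MIR205 probe read 8.15, 9.13, 9.13 and 8.46 with DMSO, 6.81, 7.48, 7.48 and 7.12 at 1 h, 6.94, 7.44, 6.82 and 7.40 at 3 h, and 6.70, 8.29, 6.65 and 8.07 at 6 h. All 4 arrays at 1 h, from 6.81 to 7.48, and all 4 at 3 h, from 6.82 to 7.44, lay below all 4 DMSO arrays, and the 1 h and 3 h groups overlapped with each other. At 6 h replicates 1 and 3 lay as low as at 3 h, and the arrays labelled 2 and 4 lay at 8.29 and 8.07. ZFP36L2, which binds AU-rich elements and speeds mRNA decay, read 7.21, 8.81, 9.01 and 8.57 with DMSO, 7.75, 8.61, 7.77 and 8.66 at 1 h, 6.19, 8.0, 6.94 and 7.44 at 3 h, and 6.17, 8.44, 6.34 and 7.93 at 6 h. Its 3 h difference was -1.02 in replicate 1, and its 6 h arrays in replicates 1 and 3 lay as low as the 3 h arrays of those numbers. TENT5B, a noncanonical poly(A) polymerase, gave -2.11 in replicate 1 at 3 h, and the Argonaute partner TNRC6B gave -0.12. MBNL2, a splicing regulator, gave -0.27, and SCARNA9, a guide RNA of Cajal bodies with a near copy that the probe may also read, gave -0.90.

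The 15 ligands, receptors and pathway components of cell-cell signaling had a median of -0.70 in replicate 1 at 3 h, beside -0.76 over all 88 genes. Of the 15, 14 were lower, beside 87 of the 88. The ephrin EFNA1, a membrane-bound ligand of EPHA receptors, read 9.17, 9.39, 9.32 and 9.07 with DMSO, 8.13, 8.88, 8.61 and 9.34 at 1 h, 6.87, 7.39, 8.68 and 7.77 at 3 h, and 7.79, 9.34, 8.25 and 8.82 at 6 h. All 4 arrays at 3 h lay below all 4 DMSO arrays, which ranged only from 9.07 to 9.39. EFNA4, a second ephrin ligand, read 7.87, 7.82, 7.57 and 8.10 with DMSO, 6.60, 7.13, 7.03 and 6.59 at 1 h, 6.64, 6.43, 7.13 and 6.88 at 3 h, and 7.41, 7.52, 7.61 and 7.78 at 6 h. The 1 h and 3 h arrays all lay below 7.57, the lowest DMSO array, and the 6 h arrays all lay above the highest 1 h array. Second probes gave -0.68 for EFNA1 and -0.60 for EFNA4 in replicates 2 to 4. Of 32 listed ephrin and semaphorin genes, 18 had a DMSO mean of at least 7, with a median of -0.04 in replicates 2 to 4, and 12 of the 18 were lower in replicate 1, beside a median of -0.07 and 55.6% over all 7336 genes.

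Receptors of Wnt signaling were FZD1, FZD2 and the R-spondin receptor LGR4. FZD2 read 7.90, 8.50, 8.22 and 8.70 with DMSO, 6.99, 7.87, 8.36 and 7.96 at 1 h, 6.64, 6.60, 7.66 and 7.18 at 3 h, and 6.98, 8.09, 8.0 and 8.16 at 6 h. Its 4 arrays at 3 h lay below all DMSO arrays. LGR4 read 6.71, 7.42, 7.13 and 6.75 with DMSO, 7.40, 7.39, 6.41 and 7.10 at 1 h, 5.89, 5.97, 5.98 and 5.44 at 3 h, and 5.70, 7.37, 5.76 and 5.90 at 6 h. It was the 1 gene of the 88 below 6 in all 4 arrays at 3 h, near the dim end of the scale, where differences can be understated. FZD1 gave -1.10 in replicate 1 and -1.01 in replicates 2 to 4, and its second probe -0.98. Of 50 listed Wnt pathway genes, 23 had a DMSO mean of at least 7, with a median of -0.08 in replicates 2 to 4, and 14 of the 23 were lower in replicate 1 (all 7336 genes, a median of -0.07 and 55.6%).

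FGFR3, a fibroblast growth factor receptor of epithelia, read 10.48, 11.85, 11.79 and 11.32 with DMSO, 10.28, 11.43, 11.25 and 11.57 at 1 h, 9.66, 10.56, 10.86 and 10.22 at 3 h, and 8.11, 11.62, 9.49 and 10.92 at 6 h. Its 3 h difference was -0.83 in replicate 1, and at 6 h the values ran from 8.11 to 11.62, the widest spread of its 4 groups. A second FGFR3 probe was dim, with a DMSO mean of 6.17, and gave -0.08. ERBB3, the receptor of neuregulins, gave -0.39 in replicate 1 and -0.95 in replicates 2 to 4, and its second probe of DMSO mean 7.30 gave -0.24. TGFBR3, the betaglycan co-receptor of TGF-beta, read 6.27, 8.04, 8.11 and 7.73 with DMSO, 6.90, 8.33, 7.83 and 8.55 at 1 h, 6.42, 6.65, 7.62 and 6.29 at 3 h, and 6.36, 8.80, 7.38 and 6.85 at 6 h. The replicate 1 arrays ran from 6.27 to 6.90 in all 4 groups, so the difference rested on replicates 2 to 4. The Hedgehog inhibitor SUFU gave -0.02 in replicate 1 against -1.23 in replicates 2 to 4. In replicate 1 it read 4.88 with DMSO and 4.85 at 3 h. These lie near the lowest deposited value of 4.235, where a fall could hardly show. The remaining genes of this group ran from -1.04 for the adhesion protein IGSF9 to -0.04 for the lipoprotein receptor VLDLR in replicate 1, with GPR162 at -0.47, MEGF9 at -0.39 and HEG1 at -0.11 between them.

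Of the 3 genes of ubiquitin and NEDD8 transfer, MYLIP is the ligase known for degrading lipoprotein receptors. MYLIP read 9.71, 11.38, 11.50 and 10.89 with DMSO, 8.81, 10.01, 10.09 and 10.78 at 1 h, 8.94, 9.96, 10.43 and 9.40 at 3 h, and 8.87, 10.56, 10.73 and 9.62 at 6 h. Its 1 h and 3 h means, 9.92 ± 0.82 and 9.68 ± 0.65, lay close together and about 1 log2 unit below the DMSO mean of 10.87 ± 0.81. The groups overlapped because the replicate 1 arrays were lower throughout. FBXW7, the substrate receptor for cyclin E and MYC, gave -1.28 in replicate 1 at 3 h, and the neddylation factor DCUN1D4 gave -0.52.

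The 8 intracellular signaling proteins were all lower at 3 h in replicate 1, with a median of -0.85. Over all 88 genes, 87 were lower and the median was -0.76. ARHGEF39 read 8.03, 8.29, 8.08 and 7.87 with DMSO, 7.18, 7.43, 8.28 and 7.63 at 1 h, 6.92, 6.49, 7.30 and 7.49 at 3 h, and 7.65, 7.55, 7.54 and 7.77 at 6 h. It was lower than every DMSO array in all 4 arrays at 3 h and in all 4 at 6 h. Its further probes of DMSO means 7.68 and 6.28 gave -0.29 and -0.33, against -0.99. The PAK4 inhibitor INKA2 gave -2.03 in replicate 1, TNFAIP8 -1.15, the CAS-family adaptor EFS -0.99 and RGS2, which limits G protein signaling, -0.72. WNK1 (-0.17), the lipid kinase PIK3C2B (-0.08) and SIPA1L3 (-0.04) lay near DMSO in replicate 1.

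Membrane traffic and cytoskeleton gave 7 genes. EPN3, an epsin of clathrin-coated pits, read 7.74, 8.34, 8.30 and 7.85 with DMSO, 7.24, 6.94, 7.43 and 7.76 at 1 h, 6.89, 6.60, 7.07 and 6.81 at 3 h, and 6.83, 7.29, 7.15 and 7.26 at 6 h. All 4 arrays at 3 h, from 6.60 to 7.07, and all 4 at 6 h, from 6.83 to 7.29, lay below all 4 DMSO arrays. The late endosomal GTPase RAB7B gave -1.78 in replicate 1 and the endosomal PLEKHF2 -1.21. The other 4, CNTRL, FNBP1L, FHDC1 and SHROOM2, ran from -0.45 to -0.32.

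The remaining 14 genes share no role. KCNH4, a voltage-gated potassium channel, read 6.85, 7.96, 7.31 and 6.96 with DMSO, 6.98, 5.95, 6.54 and 7.47 at 1 h, 5.85, 6.09, 6.11 and 5.91 at 3 h, and 5.68, 6.07, 6.04 and 6.5 at 6 h. All arrays at 3 h and at 6 h lay below all DMSO arrays. In replicate 1 at 3 h the other 13 ran from -1.98 for PLEKHH3 to -0.02 for SPATA7. Between them lay LURAP1L (-1.59), RTL10 (-1.22), USH1G (-1.07), HSPA1B (-1.04), DIPK2A (-0.96), the pantothenate kinase PANK1 (-0.77), MAGEE1 (-0.65), FAM117B (-0.61), TP53TG3 (-0.23), IVNS1ABP (-0.10) and NIPA1 (-0.09). HSPA1B and TP53TG3 have near-identical copies, so their probes may read more than 1 gene.

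At 1 h the 88 genes were mixed. In replicate 1, 49 of the 88 (55.7%) lay below DMSO against 52.4% of all 7336 genes, and the median was -0.06. At least 0.9 below DMSO lay 9 genes, against 0.791% of all genes. These 9 were HES5, MXD3, CEBPA, MIR205, EFNA4, EFNA1, RAB7B, FZD2 and MYLIP. All 4 arrays at 1 h lay below all 4 DMSO arrays for 6 genes, HES5, MIR205, MXD3, NAB2, EFNA4 and CEBPA, against 2.07% of all genes. Without the replicate 1 arrays the number was 28, against 8.83%. The medians against DMSO in 1 h replicates 2, 3 and 4 were -0.34, -0.52 and -0.11. Over all 7336 genes they were -0.03, -0.03 and -0.06. The DMSO arrays of replicates 2 to 4 also served to choose the genes, so these counts and medians are descriptions.

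**Figure D4:**
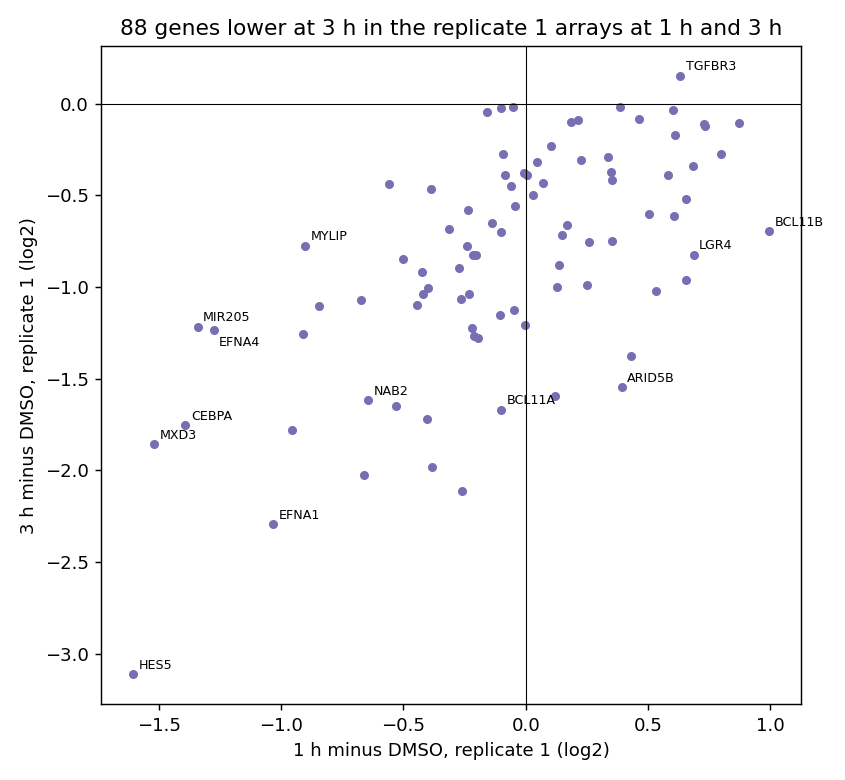
The 3 h minus DMSO difference (vertical axis) against the 1 h minus DMSO difference (horizontal axis) of the 88 genes in the replicate 1 arrays, both in log2 units and both against the same DMSO array. At 3 h 87 genes lie below 0, whereas at 1 h 49 do, with HES5, MXD3, CEBPA, MIR205 and EFNA4 farthest to the left.

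At 6 h most of the genes were still below DMSO in replicate 1, 77 of 88 (87.5%) against 54% of all 7336 genes, with a median of -0.67. Of these, 28 were at least 0.9 lower, against 1.74%. All 4 arrays at 6 h lay below all 4 DMSO arrays for 3 genes, KCNH4, EPN3 and ARHGEF39, against 0.995% of all genes. The arrays differed. The array labelled 6 h replicate 2 had a median of -0.12 against DMSO, while those of replicates 1, 3 and 4 had -0.67, -0.75 and -0.81. With only replicates 1 and 3, in which CYP26A1 was high, 27 genes lay below every DMSO array, against 9.21% of all genes. Without the replicate 1 arrays of both groups the number was 27, against 8.21%. The array labelled 6 h replicate 4, in which CYP26A1 was low, had as low a median over the 88 genes as replicates 1 and 3. As at 1 h, the DMSO arrays of replicates 2 to 4 had served to choose the genes. The counts and medians that use them are therefore descriptions, while the replicate 1 values were set against the DMSO array of replicate 1.

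**Figure D5:**
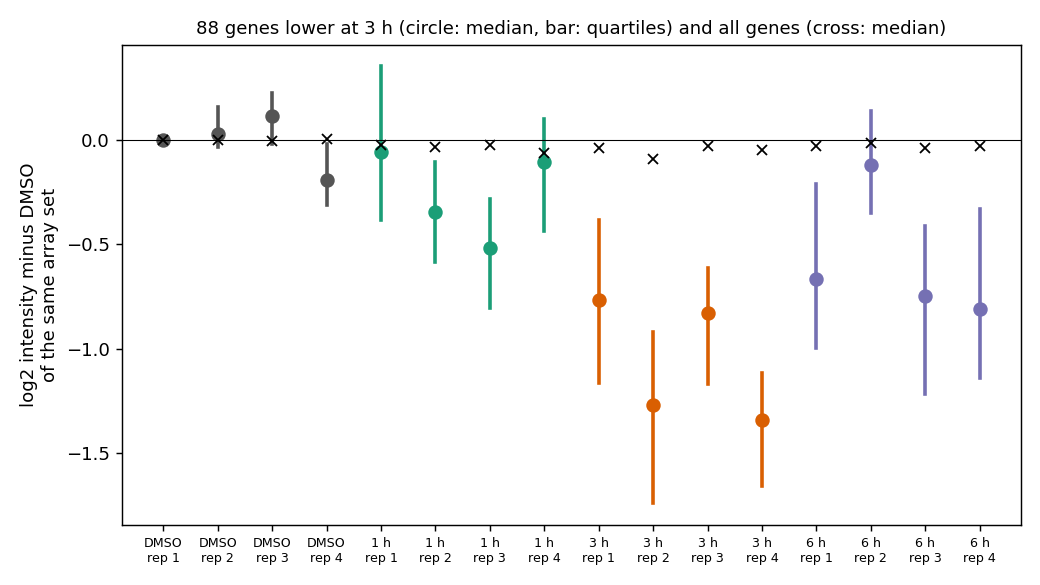
The median (circle) and quartiles (bar) of the 88 genes, and the median of all 7336 genes (cross), in each array as log2 intensity minus DMSO of the same array set. The 3 h medians lie between -1.34 and -0.76, those at 1 h between -0.52 and -0.06, and those at 6 h between -0.81 and -0.12, while the crosses stay near 0.

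The 3 h array was the lowest of the 4 arrays of its own number for 53 genes in replicate 1, which the rule did not use, against 21.8% of all genes. In the same replicate the 6 h array was the lowest for 30 genes, against 25.2%, and the 1 h array for 4, against 26.5%. The same 53 genes (60.2%) were those with the 3 h array below both the 1 h and the 6 h array of replicate 1, against 29.2%. The lowest 6 h values of replicate 1 against DMSO were those of HES5 (-2.51), FGFR3 (-2.37), IGSF9 (-2.08) and GPR162 (-1.77), the last 3 of which were lower at 6 h than at 3 h there. RFX7 (0.52), NIPA1 (0.39) and PRDM10 (0.28) were the highest against DMSO at 6 h in replicate 1.

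The comparison of 6 h with 1 h shares no array with the rule, has 4 arrays per group, and was tested with limma over 12467 genes and probes. It called 21, or 0.168%, all lower at 6 h and 0 higher. Among the 88 genes 0 were called. At an unadjusted p under 0.05, 3 genes were lower (background 1.48%) and 1 was higher (background 1.67%). This number depended on the arrays and the model. With the replicate number as a block 17 genes were lower (background 3.57%) and 3 higher (2.83%), and with replicate 1 as a block 10 were lower (3.36%) and 3 higher (3.31%). Without 6 h replicate 2 there were 13 lower (2.53%), and with 6 h replicates 1 and 3 only, chosen after seeing the data, 20 lower (3.2%), with 1 higher in each. Without 1 h replicate 4 or without 6 h replicate 3 it was 0 lower and 1 higher. Without 1 h replicate 2 it was 3 lower (1.56%) and 1 higher (1.41%). None of the 88 passed the adjusted test in any of these fits. EFNA4 was the higher one, by 0.74 ± 0.198 (SE) on the log2 scale, with a limma adjusted p of 0.714 and all 4 arrays at 6 h above all 4 at 1 h. Such an order was seen for 1 of the 88 genes (1.38% of all 7336 genes), and the opposite order for 0 (1.06%). The lower ones were SIPA1L3 by -0.92 ± 0.365, HEY1 by -0.79 ± 0.323 and RGS2 by -0.73 ± 0.315, each with a limma adjusted p of 0.9999. FGFR3 had the lowest difference, -1.10 ± 0.688, and CEBPA (0.63 ± 0.435) and HES5 (0.61 ± 0.627) the next highest after EFNA4, none of them past the test. The 6 h mean was below the 1 h mean for 65 of the 88 genes (73.9%), against 47.9% of all 7336 genes. The median difference was -0.32, against 0.01. It rested in part on single arrays, since it was -0.03 without 6 h replicate 1 and -0.64 with only 6 h replicates 1 and 3. Without 1 h replicate 2 it was -0.23.

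The 88 genes were 1.2% of the 7336 genes with a DMSO mean of at least 7, and the lists of pathways and cell functions, chosen with earlier results known, are given as counts over such genes. Of 26 developmental transcription factors 4 were among the 88, FOXE1, HOXC6, TBX1 and MEIS2. In replicate 1, 20 of these 26 were lower at 3 h, against 55.6% of all genes, with a median of -0.21, against -0.04. Of 13 BMP and TGF-beta genes TGFBR3 and SMAD5 were among them, of 25 chromatin genes SUZ12 and ARID5B, and of 22 receptor tyrosine kinase genes ERBB3 and FGFR3. Of 45 cell cycle genes E2F7 was among them, of 20 endocytosis genes EPN3, of 2 Hedgehog genes SUFU and of 11 signaling inhibitors RGS2. The lists of cell junctions, cholesterol synthesis, hypoxia and glycolysis, p53 targets and squamous differentiation held 0. A listed gene that the rule left out by name, such as a KRT gene, could not be among the 88. Where a list holds such genes, its count was limited by the rule. In the limma test of 6 h against 1 h, 0 genes of the Notch (17 tested), Wnt (33), BMP and TGF-beta (16), ephrin and semaphorin (20) and developmental factor (31) lists passed in either direction, against 0.168% of all genes and probes. The lists of signaling inhibitors (15 tested) and of hypoxia and glycolysis (22) each had 1 gene called lower at 6 h, neither of them among the 88.

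Sequence features of the 88 genes were set beside those of all genes with a DMSO mean of at least 7, as a description. A promoter of 300 bases was found for 71 of them and for 6145 of the 7336 genes. The RBPJ core TGGGAA, on either strand, was in 21.1% of the members' promoters, 21.8% of those 6145 and 24% of all 35116 in the table. The retinoid receptor half-site AGGTCA was in 7.04%, 9.49% and 13.8%. The E-box CACGTG was in 12.7%, 10.9% and 7.26%, and the GC box GGGCGG in 71.8%, 71.8% and 45%. The median GC content was 67.3% against 65.3%, and the median gene length 26.8 kb against 26.3 kb over the 7333 genes of the 7336 with a length.

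Other probes of the same genes gave a further reading from the same arrays. Of the 88 genes, 44 had a further probe, and 21 had one or more with a DMSO mean of at least 6. In replicates 2 to 4, which chose the genes, these 23 probes were lower at 3 h, 16 of them by at least 0.5, and this is a description. Of the 2267 further probes of all 7336 genes with such a DMSO mean, 53.5% were lower and 6.18% lower by at least 0.5. In replicate 1, which the rule did not use, 17 of the 23 were lower (73.9%), with a median of -0.63, against 51.9% and -0.01 over the 2267 probes. Besides those given above, probes of TBX1 gave -1.52 and -1.49 and a probe of FAM117B gave -1.12. The further probes with a difference above 0 all had a DMSO mean below 6 and belonged to BCL11B, CBFA2T2, FBXW7, GPR162, HEY1, HOXC6, INKA2, SMAD5, TBX1 and ZMYM3.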

How the data were processed

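The authors deposited 1 log2 value per probe and array for 16 Illumina bead arrays of biotin-labelled total RNA. Per the submitters' processing notes limma was used, without a version or role. The background treatment and log base (base 2 was assumed) were not given in the sources used here. The sorted values of the arrays lay within 0.0181 of each other over the lower 99% of ranks, so no further normalization was applied. Of the non-normalized table the row order was read, and its 32 value and detection columns, whose names match no label, were not used.

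The values of the replicate 1 arrays were moved up by 1 row from row 10569 of 47230 (77.6% of rows). The 4 arrays taken singly put it at rows 10569 to 10572, all dim rows with values up to 4.71. The search and the limma fit were tested on simulated data.

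Probes were named through the platform annotation, in which 30113 had 1 symbol, 8 had several and 17109 are not listed and stay unnamed. Genes were filtered at log2 of at least 6 in at least 4 arrays, with 1 probe per symbol (highest mean in replicates 2 to 4), and all 88 genes passed. The 4 arrays at 1 h and the 4 at 6 h were compared with limma 3.58.1 (lmFit and eBayes, R 4.3.3), two-sided, Benjamini-Hochberg adjusted p under 0.05 over 12467 genes and probes, 9651 with a symbol. The DMSO and 3 h arrays of replicates 2 to 4 chose the genes, so contrasts with them carry no test.

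The genes, role groups and lists were chosen with earlier results of these data known. Genes given by array or by name were those with the lowest differences at 3 h, at 1 h and between 6 h and 1 h, the highest between 6 h and 1 h, those in a list, near the threshold, not lower in replicate 1 or with a discordant probe, and others by role. The main fit did not pair the arrays by replicate number. Across genes, deviations of 1 h and 6 h arrays of the same number correlated at 0.842 and 0.618 in replicates 1 and 2. In replicates 3 and 4 they correlated at -0.134 and -0.136. Alternatives were other blocks, filters, probe choices, thresholds and arrays left out. The number of arrays limits the precision. Promoter and microRNA sequences are from RefSeq tables on GRCh38.p14.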

Additional observations from a re-analysis of the deposited data

Results flagged for a closer look

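For the 25 genes whose values are given by array, each group of 4 arrays was examined for an array standing apart from the other 3, and 8 of 100 groups held one by Dixon's 95% criterion on the gap to the nearest array over the whole range, where chance gives about 1 in 20. In 6 of the 8 the array was replicate 1. In the DMSO group these were the lowest arrays of ARID5B (9.64), BCL6 (7.46) and TBX1 (7.10). CEBPA was lowest in replicate 1 at 1 h (7.25) and at 6 h (7.61), and FZD2 at 6 h (6.98). The other 2 were LGR4, lowest in 3 h replicate 4 (5.44) and highest in the array labelled 6 h replicate 2 (7.37).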

How the results depend on the processing

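No gene of the 88 was called between 6 h and 1 h under any alternative run. The number of genes called over the whole array was 43 with all 16 arrays in 1 model, 35 with the array set blocked, 11 without replicate 1 of either group, 8 with no filter, 0 with the replicate 1 rows as deposited, and 8 to 23 when 1 array was left out. With a replicate block 21 genes were called, 0 of the 88, although arrays shared deviations by number only in replicates 1 and 2. The rule gave 25 genes over all 4 replicates, and 77 to 175 when 1 of its arrays was left out, the most without DMSO replicate 4. The replicate 1 median at 3 h was -0.16 with the rows as deposited. Genes with all 1 h arrays below DMSO numbered 28 without replicate 1 of either group, 2 with rows as deposited, and 6 to 27 when 1 array was left out. For 6 h the numbers were 27 without replicate 1 of either group, 27 with 6 h replicates 1 and 3 only, a choice made after seeing the data, and 3 to 24 when 1 array was left out. The highest numbers with 1 array left out, 27 at 1 h and 24 at 6 h, came without DMSO replicate 1. With an array left out, each condition also had fewer arrays to meet. The causes were not tested.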
